A study of Mus musculus with 12 samples.

Results

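The replication-dependent histone cluster genes of mouse were followed in C2C12 cells, an established mouse (C3H) myoblast line that fuses into myotubes when serum is reduced. The members were all probes of the array whose gene symbol begins with Hist1h, Hist2h, Hist3h or Hist4h: 68 probes of 56605, for 56 gene symbols of 27306. They were split by the letters after the cluster number into H1 (8 probes, 6 genes), H2A (21 probes, 18 genes), H2B (18 probes, 14 genes), H3 (10 probes, 9 genes) and H4 (11 probes, 9 genes). Total RNA was measured on 12 single-colour arrays, 3 for each of 4 groups. The groups were siControl at day 0, siControl at day 2, siBach1 at day 0 and siBach1 at day 2, where siControl is a control siRNA and siBach1 an siRNA against Bach1, a transcription repressor of heme and iron metabolism genes. All cells were transfected, day 0 cells stayed in growth medium with fetal bovine serum, and day 2 cells had been in 2% horse serum for 2 days, starting at confluence 24 h after transfection. A single cell line and a single Bach1 siRNA stand behind all values. The experiments were done in triplicate, with no word on whether the 3 samples of a group were separate cultures, so p-values measure the spread between these samples, which may be technical.

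Replication-dependent histone genes make the bulk of the core histones H2A, H2B, H3 and H4 and of the linker histone H1 that package new DNA. Their mRNAs accumulate in S phase, lack introns and end in a stem-loop in place of a poly(A) tail, and they are degraded when DNA synthesis stops. Some genes of the same clusters are also known to give polyadenylated mRNAs in cells that have left the cell cycle, as C2C12 cells do on differentiation. The clusters hold many copies that code for the same protein with near-identical coding sequence, so probes of different copies may read the same mRNAs. The probe sequences were not used here, and every value below belongs to a probe first and to a gene only as the array names it.

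Promoters are printed for the genes that the results turn on: those with the deepest fall of each class in siControl cells, among probes above background on all arrays, and 4 of those with a probe that rose, Hist3h2a, Hist2h2bb, Hist1h1c and Hist2h3c2. All 56 symbols matched a RefSeq gene through current or older names, and 49 (all but Hist1h2al, Hist1h2bc, Hist1h3a, Hist1h3f, Hist2h2be, Hist2h4 and Hist3h2bb-ps) had a promoter window of 300 bases, 250 before and 50 after the annotated start (RefSeq, GRCm38.p6). Capitals mark the TATA box TATAAA, the CCAAT box CCAAT and the octamer ATTTGCAT, the site of Pou2f1 (Oct-1), each searched on both strands, and no matches of different motifs overlapped in the members' windows. The 250 bases before the start are given 5′ to 3′ on the strand of the gene.
Hist1h1a (chr13:23763418-23763667, plus strand): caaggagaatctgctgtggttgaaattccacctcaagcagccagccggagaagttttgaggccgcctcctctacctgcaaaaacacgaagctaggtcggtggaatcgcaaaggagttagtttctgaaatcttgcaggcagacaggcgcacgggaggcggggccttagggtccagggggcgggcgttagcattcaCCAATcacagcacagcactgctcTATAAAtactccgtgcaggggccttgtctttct
Hist1h2bf (chr13:23574208-23574457, minus strand): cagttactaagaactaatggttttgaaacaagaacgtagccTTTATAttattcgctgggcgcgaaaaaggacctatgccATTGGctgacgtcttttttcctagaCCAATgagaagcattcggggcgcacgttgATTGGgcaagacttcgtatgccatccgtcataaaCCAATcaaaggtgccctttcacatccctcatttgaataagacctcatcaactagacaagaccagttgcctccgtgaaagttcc
Hist1h3g (chr13:23535168-23535417, plus strand): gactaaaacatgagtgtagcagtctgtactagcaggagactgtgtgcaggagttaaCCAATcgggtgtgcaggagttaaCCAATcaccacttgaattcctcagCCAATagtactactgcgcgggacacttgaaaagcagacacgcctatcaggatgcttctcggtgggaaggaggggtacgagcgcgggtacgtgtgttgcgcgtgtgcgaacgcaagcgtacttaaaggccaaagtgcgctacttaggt
Hist1h4k (chr13:21750554-21750803, minus strand): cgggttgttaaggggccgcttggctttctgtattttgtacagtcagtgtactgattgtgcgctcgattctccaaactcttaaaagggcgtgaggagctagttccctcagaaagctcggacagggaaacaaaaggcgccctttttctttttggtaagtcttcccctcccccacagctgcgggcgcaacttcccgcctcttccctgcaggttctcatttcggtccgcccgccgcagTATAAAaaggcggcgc
Hist3h2a (chr11:58954435-58954684, plus strand): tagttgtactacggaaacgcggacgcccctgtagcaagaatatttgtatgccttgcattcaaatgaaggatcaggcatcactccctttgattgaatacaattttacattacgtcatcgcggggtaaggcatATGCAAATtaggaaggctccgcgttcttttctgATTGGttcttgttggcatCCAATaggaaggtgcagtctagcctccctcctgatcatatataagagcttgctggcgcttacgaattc
Hist2h2bb (chr3:96269450-96269699, plus strand): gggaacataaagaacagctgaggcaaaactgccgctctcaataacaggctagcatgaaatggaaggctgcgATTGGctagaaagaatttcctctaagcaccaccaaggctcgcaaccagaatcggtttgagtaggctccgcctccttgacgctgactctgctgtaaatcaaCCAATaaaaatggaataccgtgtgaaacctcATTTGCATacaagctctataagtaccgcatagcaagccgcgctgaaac
Hist1h1c (chr13:23738557-23738806, plus strand): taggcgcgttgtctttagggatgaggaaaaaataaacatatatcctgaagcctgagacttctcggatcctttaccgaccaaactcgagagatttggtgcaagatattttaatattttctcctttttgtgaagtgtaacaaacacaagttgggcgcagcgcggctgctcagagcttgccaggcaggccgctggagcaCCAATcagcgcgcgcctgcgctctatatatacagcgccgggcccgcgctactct
Hist2h3c2 (chr3:96239128-96239377, minus strand): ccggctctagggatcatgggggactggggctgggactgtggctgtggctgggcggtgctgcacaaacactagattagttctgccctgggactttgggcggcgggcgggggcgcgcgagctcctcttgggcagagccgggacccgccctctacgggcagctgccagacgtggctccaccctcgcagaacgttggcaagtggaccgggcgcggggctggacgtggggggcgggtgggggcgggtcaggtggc

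The CCAAT box was in the windows of all 6 H1, 17 H2A, 11 H2B and 7 H3 genes that had one, against 2 of 8 H4 genes and 37.4% of all 32851 windows. The octamer was in 6 of 11 H2B and 7 of 17 H2A windows and in none of the H1, H3 or H4 windows, against 1.74% of all windows. In 6 head-to-head H2A and H2B pairs the windows overlap, so part of these matches is counted for both genes. The TATA box was in 4 of 6 H1, 11 of 17 H2A, 7 of 11 H2B, 2 of 7 H3 and 5 of 8 H4 windows, against 13.6% of all windows. Hist2h3c2, which had the largest rise in siControl cells, had none of the 3 motifs in the 250 bases printed above. Its CCAAT match, counted here among those of the H3 genes, lay outside those 250 bases. The windows of Hist2h3c2 and Hist2h3c1 share an unbroken run of 231 bases, and the 2 genes cannot be told apart there. A match is a match of letters and not a shown binding site.

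Signals are given as log2 of the processed spot signal above the 75th percentile of the same array, so that 0 is a signal at that percentile and 1 unit is a 2-fold change. Levels of different probes were not compared with each other, since each probe has its own response. Of the 68 probes, 58 (49 genes) were tested, having at least 1 group with all 3 arrays well above background, and 52 were above it on all 12 arrays. The untested probes were 1 of H1 (the second probe of Hist1h1d), 5 of H2A and 4 of H2B, and 7 of these 10 were above background on no array. Each array read 55 to 59 of the 68 probes above background and had no saturated spot. Bach1 itself was lower with siBach1 by 1.77 ± 0.11 (SE) at day 0 and by 1.97 ± 0.11 at day 2 on the log2 scale (limma, adjusted p = 1.2e-05 and 1.4e-05). Of 9 muscle markers on the array 8 were above background on all 12 arrays. Of 7 markers of other cell types Cd68 and Ptprc were, each by 1 of its probes, and Adipoq, Cdh5 and Epcam were above it on none. Pecam1 was above it on all 3 arrays of each group except siBach1 at day 0, with 2. Sox10 was above it on all 3 day 2 arrays of both siRNAs, and at day 0 on 2 siControl arrays and 1 siBach1 array.

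During differentiation most histone probes fell. In siControl cells 42 of the 58 tested probes were lower at day 2 than at day 0, 7 were higher and 9 did not pass the test (limma, Benjamini-Hochberg adjusted p under 0.05 over 29664 probes), against 28.7% of all tested probes lower and 24.6% higher. The median difference of the 58 probes was -1.07 on the log2 scale (range -2.16 to 2.49), beside 0.00 for all tested probes. In siBach1 cells 43 probes were lower, 9 were higher and 6 did not pass, with a median of -1.47 (range -2.65 to 2.30), beside -0.07 for all tested probes, of which 32.3% were lower and 23.8% higher. The comparisons in siControl and in siBach1 cells share no array, but they share an estimate of the spread, and same-numbered samples were paired. In both, 41 probes were lower, which is 97.6% of those lower in siControl and 95.3% of those lower in siBach1 cells. The overlap was not counted over all tested probes, so it is not shown to be particular to histone probes. All 7 probes that were higher in siControl cells were higher in siBach1 cells too, and no probe moved in opposite directions. Calls of at least 2-fold were 32 lower and 4 higher in siControl cells, against 9.46% and 10.5% of all tested probes, and 40 lower and 7 higher in siBach1 cells, against 9.59% and 10.9%. The day 2 arrays all lay below the day 0 arrays for 42 probes and above them for 8 in siControl cells, against 32.8% and 29.1% of all tested probes. In siBach1 cells they lay below for 43 and above for 9, against 35.4% and 25.9%. The labelling kit named in the study's methods is known to prime from oligo-dT, while most of these mRNAs lack a poly(A) tail. In these bulk samples fewer cells in S phase, less histone mRNA per cell and a change in how much of it was labelled cannot be told apart.

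**Figure D1:**
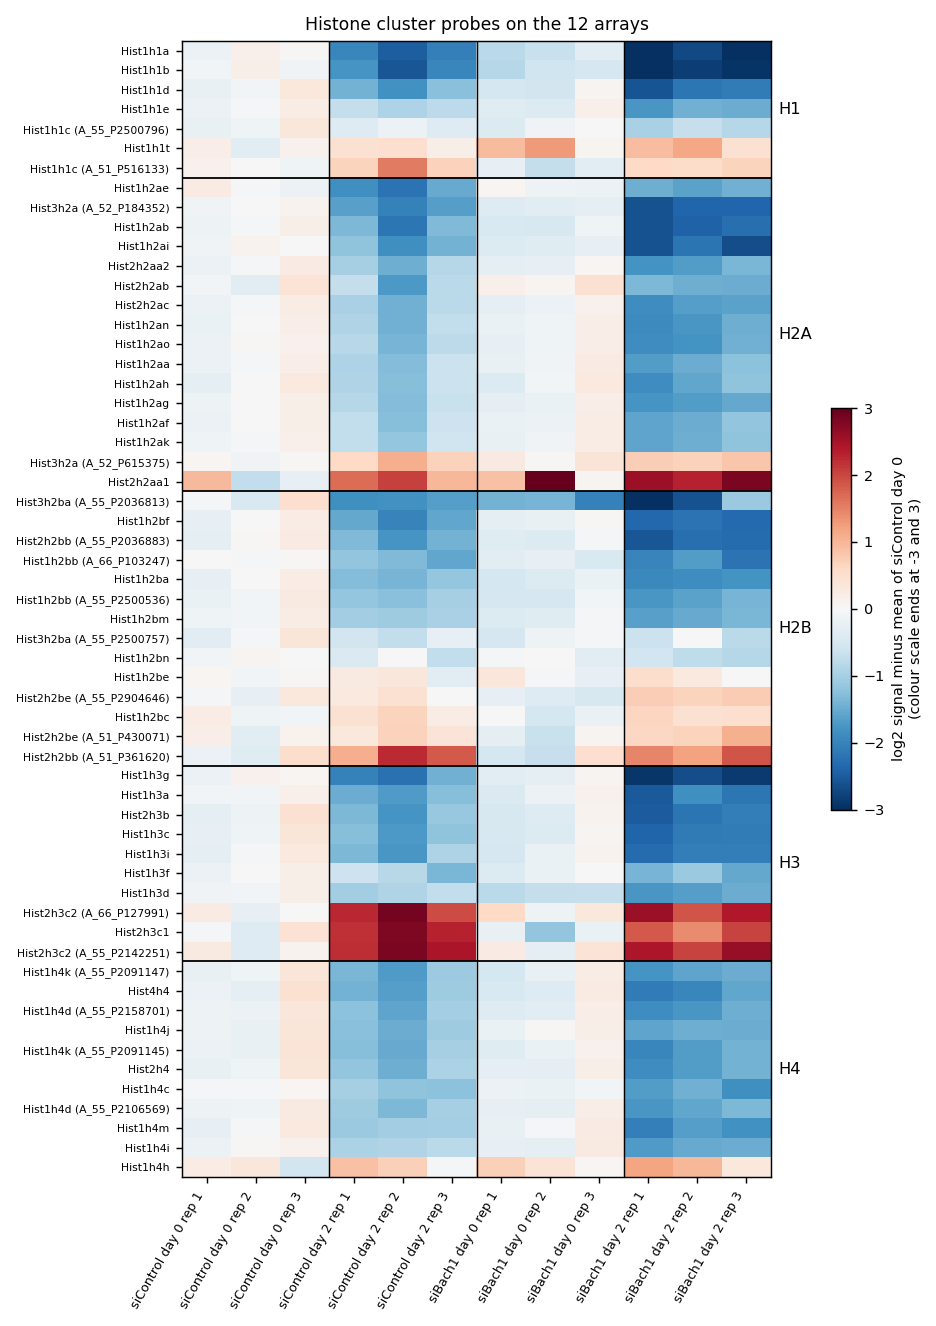
Log2 signal of the 58 tested histone probes (rows, grouped by class) on the 12 arrays (columns, grouped by condition), each probe minus its mean in siControl cells at day 0, on a colour scale from -3 to 3. Most rows are lower on all day 2 arrays, and a small set of H1, H2A, H2B and H3 rows is higher there.

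Among the H1 probes 4 of 7 fell and 1 rose in siControl cells, and 5 fell and 1 rose in siBach1 cells, with medians of -0.81 and -1.36. H1 is the linker histone that binds DNA between nucleosomes. The probe of Hist1h1a read 1.57, 1.90 and 1.78 in siControl cells at day 0 and -0.21, -0.72 and -0.29 at day 2. In siBach1 cells it read 0.94, 1.08 and 1.40 at day 0 and -1.32, -0.95 and -1.35 at day 2. All day 2 arrays were below all day 0 arrays, and the log2 difference of Hist1h1a was -2.16 ± 0.17 (SE, n = 3 arrays a group) with siControl and -2.35 ± 0.17 with siBach1 (limma, adjusted p = 3.3e-06 and 1.9e-06). Hist1h1b, another S-phase H1, read 6.52, 6.78 and 6.51 at day 0 against 4.84, 4.05 and 4.66 at day 2 in siControl cells, and between 5.74 and 6.11 against 3.32, 3.78 and 3.67 in siBach1 cells. The groups did not overlap, and it fell 4.26-fold and 5.14-fold (limma, adjusted p = 1.1e-05 and 4.7e-06). Hist1h1d fell by 1.49 and 1.96 and Hist1h1e by 0.81 and 1.36 on the log2 scale. Hist1h1t, the testis H1, did not pass, with differences of 0.38 and 0.07. Hist1h2aa and Hist1h2ba, also known for expression in the testis, had lower means at day 2. In siControl cells Hist1h2aa went from 8.95 to 7.99 and Hist1h2ba from 2.69 to 1.41. In siBach1 cells they went from 8.92 to 7.48 and from 2.31 to 0.83.

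Among the H2A probes 14 of 16 fell and 1 rose in siControl as in siBach1 cells, with medians of -1.01 and -1.52. H2A forms a dimer with H2B, and 2 such dimers complete each nucleosome core. Hist1h2ag read 8.87, 9.03 and 9.21 at day 0 and 8.19, 7.74 and 8.36 at day 2 in siControl cells, and 8.77, 8.83 and 9.22 against 7.27, 7.35 and 7.49 in siBach1 cells. It fell 1.92-fold and 2.97-fold with no overlap (limma, adjusted p = 0.00097 and 2.7e-05). Hist1h2ai fell by 1.49 ± 0.17 and 2.15 ± 0.17, Hist1h2ab by 1.62 and 2.07, and Hist1h2ah by 0.94 and 1.48. Hist1h2ae fell by 1.86 and 1.41, but at day 2 its probe was above background on 1 siControl and 2 siBach1 arrays. The probe of Hist2h2aa1 did not pass, with differences of 1.57 and 1.02, and was above background on no siControl array at day 0.

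Among the H2B probes 7 of 14 fell in both kinds of cells, while 2 rose in siControl and 4 in siBach1 cells, and the medians were -0.77 and -0.67. Hist1h2bf read 1.84, 2.09 and 2.31 at day 0 and 0.54, 0.08 and 0.52 at day 2 in siControl cells, and 1.79, 1.86 and 2.13 against -0.27, -0.14 and -0.25 in siBach1 cells. It fell by 1.70 ± 0.16 and 2.15 ± 0.16 with no overlap (limma, adjusted p = 7.8e-06 and 1.6e-06). The mean of Hist1h2bm went from 3.99 to 2.96 in siControl and from 3.71 to 2.48 in siBach1 cells. For Hist1h2bb probe A_55_P2500536 it went from 3.82 to 2.68 and from 3.45 to 2.24. Hist1h2bc rose by 0.45 in siControl cells, where the groups overlapped (3.06, 2.71 and 2.77 against 3.32, 3.52 and 3.06), and by 0.79 in siBach1 cells (2.83, 2.33 and 2.64 against 3.50, 3.31 and 3.35), where they did not (limma, adjusted p = 0.034 and 0.0016). Hist2h2be, a gene known for a polyadenylated H2B mRNA in nondividing cells, has 2 probes. Both rose in siBach1 cells, by 1.09 ± 0.15 and 1.07 ± 0.21, and neither passed in siControl cells, with differences of 0.25 and 0.46. The test of this contrast is given with the difference of effects. Of the Hist3h2ba probes, A_55_P2036813 was well above background only on the siControl day 0 arrays, so it was at least 1.59-fold lower at day 2 in siControl cells. It entered the test only through those arrays, so being called lower (limma, adjusted p = 0.0091) is no separate support for a fall. The other Hist3h2ba probe did not pass.

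Among the H3 probes 7 of 10 fell and 3 rose in both kinds of cells, with medians of -1.14 and -1.54. H3 and H4 form the tetramer at the centre of the nucleosome. Hist1h3g read -0.02, 0.28 and 0.23 at day 0 and -1.87, -2.09 and -1.27 at day 2 in siControl cells, and -0.16, -0.10 and 0.23 against -2.76, -2.50 and -2.72 in siBach1 cells. It fell 3.75-fold and 6.28-fold with no overlap (limma, adjusted p = 1.7e-05 and 1.9e-06). Hist1h3a, Hist1h3c, Hist1h3i and Hist2h3b fell by 1.34 to 1.49 in siControl and 1.94 to 2.02 in siBach1 cells. Hist1h3d read 6.56, 6.58 and 6.84 against 5.63, 5.77 and 5.93 in siControl cells, a fall of 0.89 ± 0.11, and it fell by 0.89 ± 0.11 in siBach1 cells as well.

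The 3 H3 probes that rose were those of Hist2h3c2 and Hist2h3c1. Probe A_55_P2142251 of Hist2h3c2 read -1.70, -2.34 and -1.86 at day 0 and 0.24, 0.85 and 0.47 at day 2 in siControl cells, and -1.72, -2.23 and -1.56 against 0.47, 0.05 and 0.66 in siBach1 cells. The groups were far apart, and it rose 5.60-fold and 4.68-fold (limma, adjusted p = 1.2e-05 and 2.5e-05). The second probe of Hist2h3c2 rose by 2.36 and 2.03 on the log2 scale. The probe of Hist2h3c1 rose from -3.58, -3.93 and -3.10 to -1.35, -0.73 and -1.24 in siControl cells, a rise of 2.43 ± 0.31, and by 2.30 ± 0.31 in siBach1 cells.

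Among the H4 probes 10 of 11 fell and none rose in both kinds of cells, with medians of -1.20 and -1.51. The H4 genes are known to code for the same protein, and the falls lay close together, from 0.89 to 1.39 in siControl cells and from 1.45 to 1.84 in siBach1 cells. Hist1h4i read 0.53, 0.75 and 0.85 at day 0 and -0.25, -0.20 and -0.10 at day 2 in siControl cells, and 0.47, 0.44 and 0.98 against -0.98, -0.79 and -0.78 in siBach1 cells. It fell 1.86-fold and 2.79-fold with no overlap (limma, adjusted p = 0.00044 and 1.2e-05). Hist1h4d probe A_55_P2106569 read 8.20, 8.22 and 8.61 at day 0 in siControl cells, and fell by 1.13 ± 0.17 with no overlap (limma, adjusted p = 0.00025). The 2 probes of Hist1h4k fell by 1.26 and 1.39 in siControl and by 1.54 and 1.45 in siBach1 cells. Hist4h4, the member of the fourth cluster, fell by 1.38 and 1.66, and Hist2h4 by 1.20 and 1.50. Hist1h4h did not pass, with differences of 0.52 and 0.46.

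Probes of the same gene moved apart in 3 of the 9 genes with 2 tested probes. For Hist3h2a, A_52_P184352 read 7.30, 7.39 and 7.50 at day 0 and 5.76, 5.36 and 5.75 at day 2 in siControl cells, while A_52_P615375 read 1.28, 1.11 and 1.25 and then 1.82, 2.31 and 1.91. The first fell by 1.77 ± 0.12 and the second rose by 0.80 ± 0.14 (limma, adjusted p = 1.1e-06 and 0.00056). For Hist2h2bb, A_55_P2036883 fell from 3.66, 3.95 and 4.17 to 2.59, 2.15 and 2.51, and A_51_P361620 rose from -3.87, -4.06 and -3.16 to -2.60, -1.45 and -1.85 (limma, adjusted p = 3e-05 and 0.0032). In siBach1 cells the same happened, with -2.11 and 0.53 for Hist3h2a and -2.10 and 1.75 for Hist2h2bb. For Hist1h1c, a linker histone also made outside S phase, A_51_P516133 rose from 1.65, 1.50 and 1.39 to 2.18, 3.08 and 2.20 in siControl cells and from 1.27, 0.79 and 1.19 to 2.12, 2.07 and 2.18 in siBach1 cells. Its other probe, A_55_P2500796, fell by 0.67 in siBach1 cells and did not pass in siControl cells, with a difference of -0.32.

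**Figure D2:**
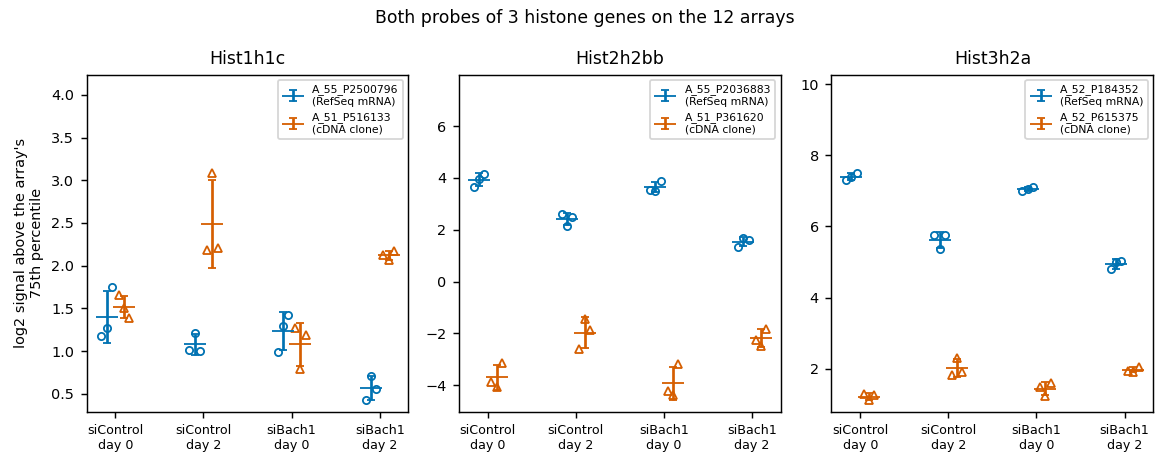
Log2 signal above the array's 75th percentile for both probes of Hist1h1c, Hist2h2bb and Hist3h2a in the 4 conditions; points are the 3 arrays, and bars give mean ± SD. In each gene 1 probe is higher and the other lower at day 2, although the fall of the second Hist1h1c probe did not pass in siControl cells.

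The array names a probe by a RefSeq mRNA (49 tested probes) or by a cDNA clone (9 tested probes), a split that was noticed after the values were seen. In siControl cells 40 of the 49 RefSeq mRNA probes fell and 1 rose, while 2 of the 9 cDNA clone probes fell and 6 rose. In siBach1 cells 42 fell and 3 rose among the former, and 1 fell and 6 rose among the latter. In the 3 genes above the probe that rose was named by a cDNA clone and the other by a RefSeq mRNA. By cluster, 33 of 40 Hist1 probes fell and 2 rose in siControl cells, 6 of 13 Hist2 probes fell and 4 rose, 2 of 4 Hist3 probes fell and 1 rose, and the Hist4 probe fell.

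**Figure D3:**
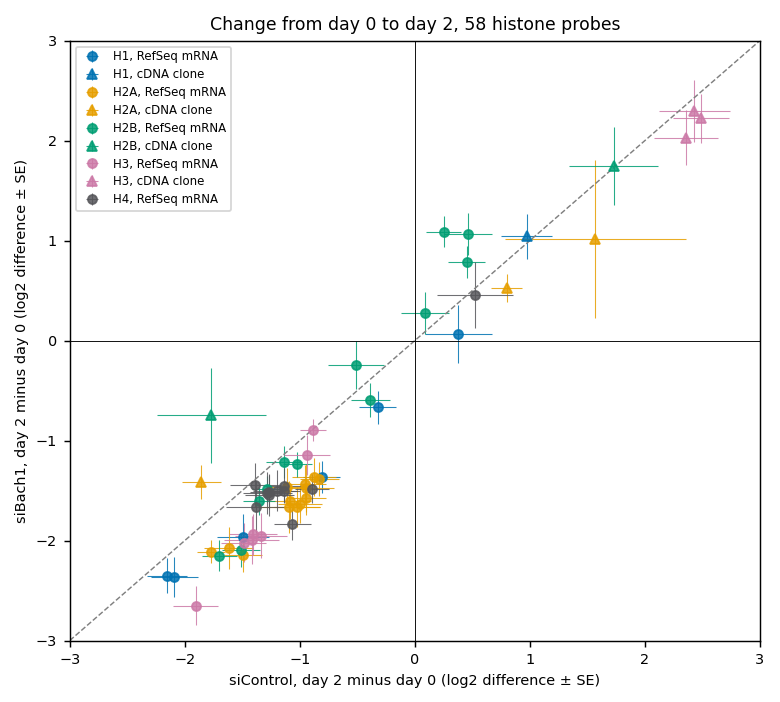
Log2 difference, day 2 minus day 0, of each tested histone probe in siControl cells (x axis) and in siBach1 cells (y axis), with SE bars; circles are RefSeq mRNA probes and triangles cDNA clone probes. Most probes lie below 0 on both axes, and the 7 probes that rose in both kinds of cells lie above 0 on both.

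At day 0 few histone probes differed between siBach1 and siControl cells. Of the 58 tested probes 3 were lower with siBach1 and 0 higher, against 8.32% of all tested probes lower and 8.8% higher, so the members' share was below the background. At an unadjusted p under 0.05, 9 were lower and 1 higher (15.5% and 1.72% of the 58), against 12.9% and 18.2% of all tested probes. With the replicate number as a block, 7 were lower and 1 higher. The median was -0.17 (-0.27 with quantile normalization), beside 0.09 for all tested probes (0.04). Of the 58 differences 50 were below 0 at day 0, beside 49 at day 2. The share below 0 was not counted over all tested probes. The siBach1 arrays all lay below the siControl arrays for 9 probes and above them for 0, against 15.4% and 21.9% of all tested probes. A called change of at least 2-fold was found for 1 lower and 0 higher probes, against 1.98% and 0.809%. That 1 was Hist3h2ba probe A_55_P2036813, whose siBach1 arrays were not well above background, so a 2-fold difference is not shown for it. Among the 52 probes above background on all 12 arrays, 2 were called lower and 0 by at least 2-fold. Hist1h3d read 5.85, 5.95 and 5.96 with siBach1 against 6.56, 6.58 and 6.84 with siControl, and was lower by 0.74 ± 0.11 with no overlap (limma, adjusted p = 0.0015). Hist1h1a was 1.52-fold lower (limma, adjusted p = 0.038). The third was Hist3h2ba probe A_55_P2036813, not well above background on any siBach1 array and at least 1.43-fold lower (limma, adjusted p = 0.041). It entered the test only through the siControl day 0 arrays, so this call is no separate support for a difference. The call was lost in 10 of 24 alternative settings for Hist1h1a, 13 of 23 for Hist3h2ba and 1 of 24 for Hist1h3d.

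At day 2, 25 of the 58 probes were lower with siBach1 and 0 were higher, against 6.26% and 5.75% of all tested probes. At an unadjusted p under 0.05, 33 were lower and 1 higher (56.9% and 1.72% of the 58), against 14.6% and 12.7% of all tested probes. The median was -0.51, beside -0.01 for all tested probes, and 0 probes were called with a change of at least 2-fold, against 0.651% of all tested probes lower and 1.52% higher. The siBach1 arrays all lay below the siControl arrays for 30 probes and above them for 2, against 17.1% and 15.7%. The lower probes were 4 of 7 H1, 7 of 16 H2A, 5 of 14 H2B, 6 of 10 H3 and 3 of 11 H4 probes, and the class medians were -0.75, -0.60, -0.39, -0.72 and -0.42. All 25 were RefSeq mRNA probes, and none of the 9 cDNA clone probes passed. The number of calls changed when single arrays were left out. Among the siBach1 day 2 arrays it was 4 without replicate 1, 13 without replicate 2 and 15 without replicate 3. Among the siControl day 2 arrays it was 7 without replicate 1, 26 without replicate 2 and 9 without replicate 3. A fit with 1 array fewer also has less power. With the replicate block, and with the slide block, the number was 37. On slide 1, with 2 arrays a group, the median was -0.53 and 50 of 58 probes were below 0, and on slide 2, with 1 array a group, it was -0.56 and 45 were below 0.

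The largest called difference was that of Hist1h2ai, which read 0.07, 0.49 and 0.02 with siBach1 against 1.47, 0.83 and 1.25 with siControl at day 2. It was 1.99-fold lower with no overlap (limma, adjusted p = 0.0051). Hist1h1b was 1.90-fold lower, Hist1h3g 1.89-fold, Hist2h2bb probe A_55_P2036883 1.83-fold and Hist2h3b 1.78-fold (limma, adjusted p = 0.017, 0.015, 0.0097 and 0.048). Of 24 alternative settings the call was lost in 2 for Hist1h2ai, 7 for Hist1h1b, 5 for Hist1h3g, 2 for this Hist2h2bb probe and 13 for Hist2h3b, and in 2 to 15 over the 25 probes. The falling probe of Hist3h2a read 4.79, 5.01 and 5.02 against 5.76, 5.36 and 5.75, and was 1.60-fold lower, while its rising probe differed by -0.05 (limma, adjusted p = 0.0062 and 0.88). Hist1h4m read -2.34, -1.95 and -2.12 against -1.42, -1.35 and -1.32 at day 2 and was 1.71-fold lower, whereas at day 0 its arrays overlapped. Hist1h3d, already lower at day 0, was lower by 0.75 ± 0.11. The 3 rising H3 probes did not pass, with differences of -0.13, -0.07 and -0.67.

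**Figure D4:**
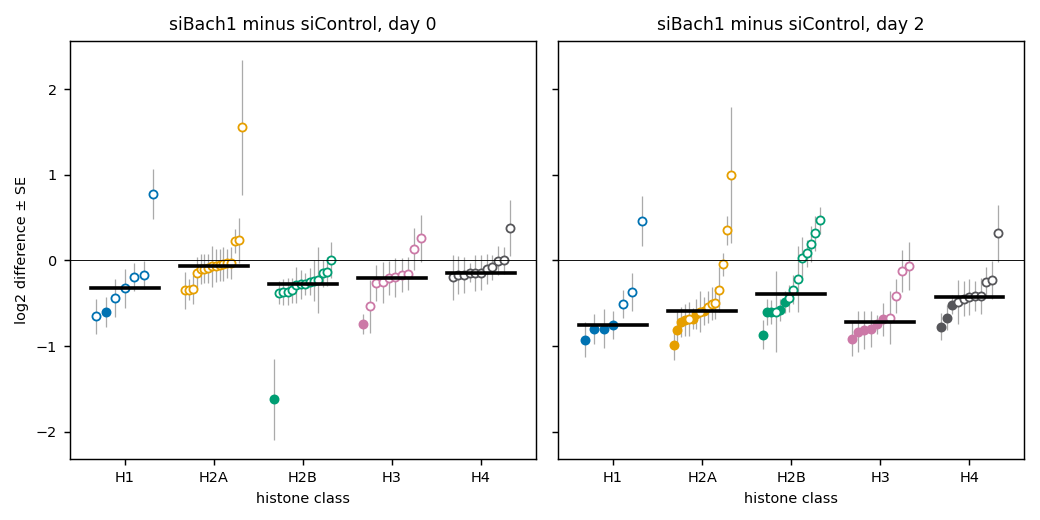
Log2 difference, siBach1 minus siControl, of the tested histone probes by class at day 0 and at day 2; filled points passed the test and bars are class medians. At day 0 3 probes are filled and at day 2 25, all of them below 0.

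Whether the siBach1 effect differed between the days was tested by the difference of effects, day 2 minus day 0. No histone probe passed, against 2.2% of all tested probes lower and 2.39% higher (0.458% and 0.981% with a difference of at least 2-fold). At an unadjusted p under 0.05 11 were lower and 1 higher, against 12.9% and 8.89% of all tested probes. With the replicate number as a block 4 passed as lower and 0 as higher (adjusted p under 0.05), and with the slide as a block 5 and 1. Without a block the effect at day 2 was not shown to differ from that at day 0 for any histone probe. Whether a probe was called thus depended on the block, and replicate numbers paired the samples. Of the 58 differences 49 were below 0, with a median of -0.31 (-0.17 with quantile normalization), beside -0.07 for all tested probes (-0.02). The medians were -0.31 for H1, -0.53 for H2A, -0.03 for H2B, -0.43 for H3 and -0.28 for H4 (-0.06 with quantile normalization). For Hist1h3d the difference was -0.01 (95% interval -0.36 to 0.35). The smallest adjusted p was that of Hist2h2be probe A_55_P2904646, which read -1.40, -1.45 and -1.37 with siBach1 at day 2 against -1.83, -1.67 and -2.12 with siControl, and -2.38, -2.50 and -2.61 against -2.19, -2.38 and -1.81 at day 0. Its difference of effects was 0.84 ± 0.22, and that of the other Hist2h2be probe was 0.61 ± 0.30 (limma, adjusted p = 0.058 and 0.27).

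Factors that make and process histone mRNA fell with differentiation too. Of 19 listed genes 18 were on the array, and with 1 probe a gene 15 fell and 1 rose in siControl cells, with a median of -0.72, and 15 fell in siBach1 cells, with a median of -0.77. Of all tested probes 28.7% fell and 24.6% rose in siControl cells, and 32.3% and 23.8% in siBach1 cells. Slbp, which binds the stem-loop, read 1.56, 1.54 and 1.67 at day 0 and -0.44, -0.40 and 0.07 at day 2 in siControl cells, and 1.28, 1.52 and 1.54 against -0.42, -0.32 and -0.00 in siBach1 cells. With this probe, A_55_P2071799, it fell by 1.85 ± 0.15 and 1.69 ± 0.15 with no overlap (limma, adjusted p = 4.2e-06 and 7.1e-06). The mean of A_55_P2071802 went from 1.09 to -0.64 in siControl and from 0.99 to -0.55 in siBach1 cells. By their means, other Slbp probes moved less in siControl cells, with overlapping arrays: A_55_P2620126 from -2.85 to -3.01 and A_55_P2716486 from -0.61 to -1.12. The arrays of A_55_P2620126 spread widely there at day 2, with -3.79, -1.49 and -3.75 against -2.66, -3.08 and -2.82 at day 0. In siBach1 cells both means went lower, from -2.69 to -3.81 and from -0.62 to -0.73. Of the factors that switch the genes on, Npat fell by 0.52 and 0.45 and Hinfp by 0.88 and 0.50. Of those that cut the 3′ end, Casp8ap2 fell by 1.21 and 1.02, Cstf2 by 1.49 and 1.52, Cpsf2 by 0.64 and 1.04 and Cpsf3 by 0.39 and 0.58. Eri1, an exonuclease that trims the stem-loop end, fell by 1.29 and 0.86. Lsm11, a subunit of the U7 particle, fell by 1.56 and 1.02 with 1 probe and rose by 0.24 and 0.76 with the other. Between siBach1 and siControl cells, with 1 probe a gene, 1 of the 18 was lower at day 0 (Eri1, with -0.57) and 2 were at day 2 (Cpsf2 and Lsm10, with -0.43 and -0.38), and Slbp differed by -0.15 and 0.01. Of all tested probes 8.32% were lower at day 0 and 6.26% at day 2. Second probes were lower as well: Cstf2 A_55_P2080703 with -0.77 at day 0 and -0.48 at day 2, and Lsm11 A_55_P2723494 with -0.72 at day 0 (limma, adjusted p = 0.0024, 0.033 and 0.00025). The other probes of Cstf2 and Lsm11 did not pass at either day.

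Of 11 replication-independent histone genes, which are made throughout the cell cycle or for special chromatin, 6 fell and 2 rose in siControl cells and 7 fell and 1 rose in siBach1 cells. Cenpa, the centromeric H3, had differences of -1.94 and -2.35, and H2afx, the H2A of the DNA damage response, of -1.64 and -2.03. H3f3a, which codes for H3.3, rose by 0.58 and 0.39, while H3f3b, which codes for the same protein, fell by 0.62 and 0.42. With siBach1, 2 of the 11 were lower at day 0 and 5 at day 2, among them H3f3b by 0.97 and 0.77 and Cenpa by 0.78 at day 2. Of 14 histone chaperones of replication 13 fell in siControl and 12 in siBach1 cells, with -2.45 and -2.16 for Chaf1a, a subunit of the chromatin assembly factor. Of these 14, 4 were lower with siBach1 at day 0 and 0 at day 2. For both lists, the shares of all tested probes were 28.7% lower and 24.6% higher in siControl cells, and 32.3% and 23.8% in siBach1 cells. With siBach1 8.32% of all tested probes were lower at day 0 and 6.26% at day 2.

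Of 30 S-phase genes, which make nucleotides and the replication machinery, 29 fell in siControl cells, with a median of -2.10, and 29 fell and 1 rose in siBach1 cells, with a median of -1.97. Of all tested probes 28.7% fell in siControl and 32.3% in siBach1 cells. With siBach1, 13 of the 30 were lower and 1 higher at day 0 and 3 were lower and 1 higher at day 2, with medians of -0.46 and -0.23. Of all tested probes 8.32% were lower and 8.8% higher at day 0, and 6.26% and 5.75% at day 2. Gins2, a subunit of the replicative helicase, was lower by 1.29 at day 0 and by 0.57 at day 2. For the 58 histone probes, counted by probe and not by gene, the counts lower were 3 at day 0 and 25 at day 2. The part of the S-phase genes in the histone differences was not tested.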

How the data were processed

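RNA of 12 C2C12 samples was hybridised to single-colour Agilent SurePrint G3 mouse arrays. The deposited scanner files hold the authors' processed intensity of each spot, already corrected for background by Agilent Feature Extraction (version 10.7.3.1 in the file headers, 9.1 in the submitters' processing notes), and the deposited table of all probes holds the authors' normalized log2 values. Here log2 intensities were taken from the scanner files after removal of control spots and outlier spots, repeated spots were averaged, and the 75th percentile of each array was subtracted. A probe was tested if at least 1 condition had all 3 arrays well above background. All 4 conditions were fitted together with limma 3.58.1 in R 4.3.3, with no block, and p-values were adjusted by the Benjamini-Hochberg method. The spread between 3 arrays a condition limits the precision. Processed signal at the 75th percentile ran from 325.5 to 534.4.

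The members, lists and tests were chosen with earlier results of these data known. By rule, the probes to name were Bach1, the 2 brightest probes of each class and the 5 largest called changes in each direction of each comparison. Genes with probes called in opposite directions and the histone mRNA factors were added. Of those factors, values of Zfp473, Srrt, Ncbp1, Pou2f1, Lsm1, Upf1, Sympk and Mif4gd are not given one by one. Other members were named as examples after their values were seen. Lists used 1 probe a gene, and Mcm2 stands in both the chaperone and the S-phase list. On simulated data with 200 changed probes of 29644, 61% of changes of 1 log2 unit and 15% of changes of 0.5 were called for siBach1 against siControl at day 2, and 25% and 1% for the difference of effects. In the data 6.26% of tested probes were called lower and 5.75% higher at day 2, more than the simulation changed. The adjusted threshold depends on that share, so the simulated percentages need not hold for the data. Replicate numbers paired the samples: deviations of same-numbered arrays from their group means correlated with r from 0.142 to 0.595 over 18 pairs. Replicates 1 and 2 lay on slide 1 and replicate 3 on slide 2, each condition kept its position on both slides, and position and condition cannot be told apart. The study's methods name the Low Input Quick Amp kit, which is known to prime from oligo-dT, and how evenly mRNAs without a poly(A) tail are labelled was not tested. Alternatives were other normalizations, background corrections, filters, blocks and tests, and each array left out.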

Additional observations from a re-analysis of the deposited data

Results flagged for a closer look

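In 3 of the 124 tested probes of the gene lists (1.61% higher and 0.806% lower, against 2.39% and 2.2% of all tested probes) the siBach1 effect differed between day 0 and day 2 by the test of the difference itself (limma, adjusted over all tested probes). Cdc45 probe A_51_P401451, a helicase subunit, had a difference of 1.16 (adjusted p = 0.018), being lower with siBach1 by 0.55 at day 0 and higher by 0.61 at day 2, while the other Cdc45 probe had 0.51 and did not pass (adjusted p = 0.16). H2afz, the replication-independent H2A.Z, had a difference of -0.59 (adjusted p = 0.027), with 0.07 at day 0 and -0.52 at day 2. Lsm11 probe A_55_P2723494 had a difference of 0.52 (adjusted p = 0.031), with -0.72 at day 0 and -0.19 at day 2, and the other Lsm11 probe had 0.54 and did not pass (adjusted p = 0.078). Of 21 alternative settings the call was lost in 2 for Cdc45, 10 for H2afz and 12 for Lsm11.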

How the results depend on the processing

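The falls from day 0 to day 2 kept their counts within 1.5 times under every alternative except that normexp gave 11 probes higher in siControl cells and the 2-fold rule 4. At day 0 the count lower with siBach1 was 5 with quantile normalization, normexp and the robust trend, 1 without a filter, under the 2-fold rule and with the methods' t-test after Benjamini-Hochberg, 8 with that t-test unadjusted, 7 with the replicate block and 9 with the slide block; the count higher was 2 with normexp, 1 with the replicate block and 2 with the slide block. At day 2 the count lower was 37 with the replicate block and with the slide block, 10 with only the arrays of the comparison, 4 without a filter, 1 with the t-test after Benjamini-Hochberg and 0 under the 2-fold rule, and 2 were higher with the unadjusted t-test. For the difference of effects 4 probes were lower with the replicate block and 5 with the slide block, and 1 was higher with the slide block and with only probes above background on all 12 arrays. The replicate block moved no other count by over 1.5 times.

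Class medians moved as follows. In siControl cells H1 was -0.69 with quantile normalization and -0.57 without a filter, and H2B -0.30 with normexp and -0.68 without a filter. In siBach1 cells quantile normalization gave H1 -1.09, H2A -1.25, H2B -0.56 and H4 -1.19, normexp gave H2B -0.38 and H3 -1.08, no filter gave H1 -1.02 and H2B -0.49, and only probes above background on all arrays gave H2B -0.91 and H3 -1.94. Between siBach1 and siControl cells normexp gave H2B -0.20 at day 0, H1 -0.62 and H2B -0.28 at day 2, and no filter gave H1 -0.63 and H2B -0.20 at day 2. For the difference of effects H2A was -0.17 with quantile normalization, and H2B was -0.10 with normexp, -0.14 with only probes above background on all arrays and 0.23, on the other side of 0, without a filter.

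Leaving out 1 array at a time gave 0 to 1 higher and 1 to 5 lower at day 0, and 0 to 1 higher and 4 to 26 lower at day 2. It gave medians of -0.88 to -0.65 for H2B in siControl cells, -1.46 to -1.18 for H1 and -0.92 to -0.46 for H2B in siBach1 cells, -0.49 to -0.17 for H1, -0.19 to 0.02 for H2A, -0.36 to -0.19 for H2B and -0.25 to 0.03 for H4 at day 0, -0.48 to -0.28 for H2B at day 2, and -0.21 to 0.08 for H2B and -0.45 to -0.16 for H4 in the difference of effects. Above 0 were H2A at day 0 (0.024 without siBach1 replicate 1 and without siControl replicate 3 of that day), H4 at day 0 (0.035 without that siControl array) and H2B in the difference of effects (0.060, 0.023, 0.082, 0.072 and 0.060 for 5 of the arrays). The cause of these changes was not tested. Of 181 results on named probes 90 kept their call in every setting and none changed direction.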
